A study of Mus musculus with 354 samples.

Results

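The extracellular signal-regulated kinase (ERK) pathway carries signals from receptor tyrosine kinases such as ERBB2 through RAS to transcription, and it switches on its own brakes. Phosphatases of the *Dusp* family remove phosphates from ERK, and Sprouty and Spred proteins act between the receptor, RAS and RAF. *Etv4* and *Etv5* encode ETS transcription factors that are induced downstream of fibroblast growth factor (FGF) receptors and ERK, and in the developing cochlea FGF receptor signaling and *Spry2* shape the balance of pillar and Deiters' cells. Because these transcripts follow ERK activity in many tissues, they are widely read as its output. The 10 genes described here were taken by name: *Dusp4*, *Dusp5*, *Dusp6*, *Spry1*, *Spry2*, *Spry4*, *Spred1*, *Etv4*, *Etv5* and *Phlda1*. They are 10 of the 55367 gene rows in the per-cell count files, and the choice was made with earlier results of these data known.

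The cells were GFP+ supporting cells (SCs) of the mouse organ of Corti, purified by fluorescence-activated cell sorting (FACS) and sequenced 1 cell at a time with SMART-Seq chemistry, which has no molecular identifiers. CA-ERBB2 pups carried *TetON-CAERBB2* together with a Cre allele, *Fgfr3-iCre*, and the reporter *ROSA-floxed-rtTA/GFP*, so that a constitutively active ERBB2 was expressed on doxycycline in cells in which the *Fgfr3* promoter had driven Cre. Control pups, from the same litters, had *ROSA-floxed-rtTA/GFP* and the same *Fgfr3-iCre* allele but no CA-ERBB2 transgene. Tamoxifen was given at 75 mg/kg at postnatal days 0 and 1 (P0 and P1) and doxycycline at 100 mg/kg at P2, and tissue was collected at P3. The injections are described in a protocol that both genotypes share, while a treatment label stands only on the CA-ERBB2 samples.

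There were 354 cells, 177 of each genotype, in 3 plates of 59 wells per genotype, and cells of a plate came from pooled pups. The plate, numbered as in the sample titles, was taken as the replicate, and p-values measure the spread between these plates. Summed counts ranged from 108357282 to 188636940 per plate. The median number of genes detected per cell was 10200 on CA-ERBB2 plate 1 and 8679 on Control plate 1, against 1742 to 2954 on the other 4 plates. In 2 CA-ERBB2 and 33 Control cells the total was under 100000 counts. Of these Control cells, 23 were on plate 2 and 10 on plate 3. Wells A12 to D12 stood apart in both genotypes. Their median was 15700 genes in the 12 CA-ERBB2 wells against 3270 in the other wells, and 15500 against 3230 in Control. The labels do not say whether these wells held more than 1 cell, and this was not tested. They are counted as cells in all results below, except where they are said to be left out. Pillar and Deiters' cell markers were present in both genotypes (13 of 13 with a count in each), at a summed level of 2548 to 3179 CPM (counts scaled to a common library total) on CA-ERBB2 plates and 1507 to 5635 on Control plates. Sums of 4 erythroid genes (21.8 to 586 CPM in CA-ERBB2, 3147 to 5255 in Control) and of the Hensen cell markers *Fst* and *Nupr1* (33.5 to 57.1 against 83.9 to 128 CPM) were lower on every CA-ERBB2 plate than on every Control plate. Sums for hair cells, greater epithelial ridge, glia, mesenchyme, macrophages, endothelium and melanocytes overlapped between the genotypes, and none of these lists was at 0. The part of these other cell types in the results below was not tested. *Erbb2* counts cannot tell the transgene from the mouse gene, which lies at chr11:98412470-98437716 (GRCm38, + strand). *Mien1*, on the opposite strand, has exons that overlap those of *Erbb2* and held 93825 counts against 48879 of *Erbb2*. The correlation of *Mien1* with *Erbb2* over 319 cells was 0.31. Whether reads of *Mien1* entered the counts of *Erbb2* was not tested.

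Regulatory DNA immediately before the start site was examined for 6 of the 10 genes. The promoters of *Dusp4*, *Spry4*, *Etv4* and *Phlda1* were not examined, and the search for elements below does not cover them. The 250 bases upstream of *Dusp6* and *Spry1* and the first 214 of the 250 bases upstream of *Dusp5*, up to its earliest exon in Gencode, are shown because these 3 genes had the smallest p-values between genotypes. The sequences are from RefSeq, build GRCm38.p6, in the direction of transcription and from the + strand, at chr19:53528895-53529108, chr10:99262981-99263230 and chr3:37639697-37639946. The capitals mark a pair of adjacent CArG boxes, the element bound by serum response factor.
Dusp5: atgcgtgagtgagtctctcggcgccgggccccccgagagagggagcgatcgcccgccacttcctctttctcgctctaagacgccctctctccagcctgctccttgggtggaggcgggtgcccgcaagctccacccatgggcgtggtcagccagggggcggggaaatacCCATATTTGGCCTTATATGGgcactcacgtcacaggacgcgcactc
Dusp6: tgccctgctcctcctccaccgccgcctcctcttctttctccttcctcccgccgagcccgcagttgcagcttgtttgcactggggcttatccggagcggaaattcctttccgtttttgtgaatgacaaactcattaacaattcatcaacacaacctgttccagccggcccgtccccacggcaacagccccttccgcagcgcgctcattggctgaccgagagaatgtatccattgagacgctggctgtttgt
Spry1: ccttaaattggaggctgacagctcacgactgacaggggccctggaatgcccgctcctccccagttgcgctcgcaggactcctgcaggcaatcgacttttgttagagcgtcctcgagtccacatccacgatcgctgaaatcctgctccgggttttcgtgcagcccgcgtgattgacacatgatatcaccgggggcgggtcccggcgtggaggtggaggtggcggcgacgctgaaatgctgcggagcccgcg
The CArG boxes began 82 and 72 bases before the RefSeq start site of *Dusp5*, and 1.47% of 32817 mouse promoters of this length hold such a box. This element was looked for after the promoters had been seen. On either strand, none of the promoters of *Dusp5*, *Dusp6*, *Spry1*, *Spry2*, *Spred1* or *Etv5* held the AP-1 letters TGACTCA or TGAGTCA (4.46% of all promoters), the cyclic AMP response element TGACGTCA (1.55%), the ETS letters CCGGAAGT (2.88%) or the Capicua letters TGAATGAA or TGAATGGA (2.08%). The search and the shares cover only the letters printed here. Other spellings of these elements, those of the Capicua element included, were not looked for and may be present in these promoters. The absence of the printed letters from 250 bases therefore does not show that the elements are absent, and it says nothing of binding elsewhere.

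The first comparison asked whether transcripts of the 10 genes were higher with CA-ERBB2 when the 59 cells of each plate were summed. *Dusp6*, *Spry1* and *Dusp5* had the smallest p-values, with log2 fold changes from 1.48 to 1.89, yet no gene of the 10 passed the test across all genes. In sums of cells, a smaller number of expressing cells and less RNA per cell cannot be told apart. Levels are CPM scaled by the trimmed mean of M-values (TMM), and fold changes are on the log2 scale, CA-ERBB2 over Control, from the quasi-likelihood test of edgeR with Benjamini-Hochberg adjustment over 21416 genes.

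Among the ERK phosphatases, *Dusp6* (chr10:99263231-99267489, GRCm38), which acts on ERK in the cytoplasm, was at 279, 294.6 and 582.3 CPM on CA-ERBB2 plates 1 to 3 and at 98.6, 230.9 and 85.4 CPM on Control plates 1 to 3. All 3 CA-ERBB2 plates lay above all 3 Control plates, and the log2 fold change was 1.48 ± 0.57 (SE; edgeR p = 0.0254, adjusted p = 0.911). Without TMM factors Control plate 2 (253.7 CPM) lay above CA-ERBB2 plate 2 (229.7 CPM), so that the groups overlapped. On CA-ERBB2 plate 3 a single cell, at 23430 CPM, held 39.6% of the *Dusp6* counts, and on Control plates 2 and 3 the top cell held 42.7% and 59.4%. *Dusp5* (chr19:53529109-53542431), a nuclear ERK phosphatase, was at 16.1, 67.6 and 52.2 CPM in CA-ERBB2 and at 20.2, 5.12 and 11.3 CPM in Control. Plate 1 was the low plate in CA-ERBB2 and the high plate in Control, and these 2 plates overlapped. The log2 fold change of *Dusp5* was 1.89 ± 0.78 (SE; edgeR p = 0.0345, adjusted p = 0.911). *Dusp4* (chr8:34807297-34819894), another nuclear MAP kinase phosphatase, was barely present, with 1302 counts over all cells. Its levels were 2.17, 1.14 and 2.41 CPM in CA-ERBB2 and 1.19, 1.13 and 0 CPM in Control, with a log2 fold change of 1.29 ± 1.82 (SE; edgeR adjusted p = 0.968).

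Among the Sprouty and Spred genes, *Spry1* (chr3:37639947-37644598) was at 111, 44 and 127 CPM in CA-ERBB2 and at 40.3, 41.9 and 15.1 CPM in Control. The plates were separated, though CA-ERBB2 plate 2 lay close to the highest Control plate, and without TMM factors it fell below (34.3 against 46.1 CPM). The log2 fold change of *Spry1* was 1.53 ± 0.63 (SE; edgeR p = 0.0342, adjusted p = 0.911), and the top cell held 72.5% of its counts on CA-ERBB2 plate 3. *Spry2* (chr14:105891947-105896819) was at 18.8, 67 and 11.8 CPM in CA-ERBB2 and at 15.6, 15.1 and 27.3 CPM in Control, so its mean difference (0.75 ± 0.77, SE) came from CA-ERBB2 plate 2 and turned to -0.34 without it. *Spry4* (chr18:38586247-38601415) was at 18.9, 6.33 and 45.8 CPM in CA-ERBB2 and at 20.9, 7.18 and 1.84 CPM in Control. The groups overlapped, and on Control plate 3 a single cell gave 90.1% of the *Spry4* counts. *Spred1* (chr2:117121374-117182279), whose product restrains RAS by bringing neurofibromin to the membrane, was at 83.4, 82.7 and 154 CPM in CA-ERBB2 and at 96.8, 19.1 and 21.2 CPM in Control. Control plate 1 lay within the CA-ERBB2 range and the other Control plates well below it, and the log2 fold change was 1.22 ± 0.71 (SE; edgeR p = 0.112, adjusted p = 0.914).

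The ETV genes had no clear direction in the plate sums. *Etv4* (chr11:101769742-101785371) held a narrow range in CA-ERBB2, at 48, 53.3 and 52.9 CPM, and spread from 4.89 CPM on plate 3 through 26.9 on plate 1 to 82.1 on plate 2 in Control. A single cell held 88.2% of the *Etv4* counts of Control plate 2, and the log2 fold change was 0.44 ± 0.83 (SE; edgeR adjusted p = 0.973). *Etv5* (chr16:22381309-22439719) was at 36.3, 35.5 and 29 CPM in CA-ERBB2 and at 29.9, 22.4 and 68.6 CPM in Control, with a log2 fold change of -0.26 ± 0.61 (SE; edgeR adjusted p = 0.979). Both signs rested on Control plate 3: without it the value was -0.07 for *Etv4* and 0.38 for *Etv5*.

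*Phlda1* (chr10:111506286-111508645), which encodes a pleckstrin homology-like protein and responds to ERK in many cells, was at 189, 270.2 and 252.5 CPM in CA-ERBB2 and at 172, 88.9 and 159 CPM in Control. The plates were separated by a small gap, which closed without TMM factors, and the log2 fold change was 0.76 ± 0.48 (SE; edgeR p = 0.141, adjusted p = 0.918). A long noncoding RNA gene, *Gm28592*, lies on the opposite strand with overlapping exons. It held 47681 counts against 170173 of *Phlda1*. The counting was set to use strand, but whether the libraries kept strand was not tested.

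**Figure D1:**
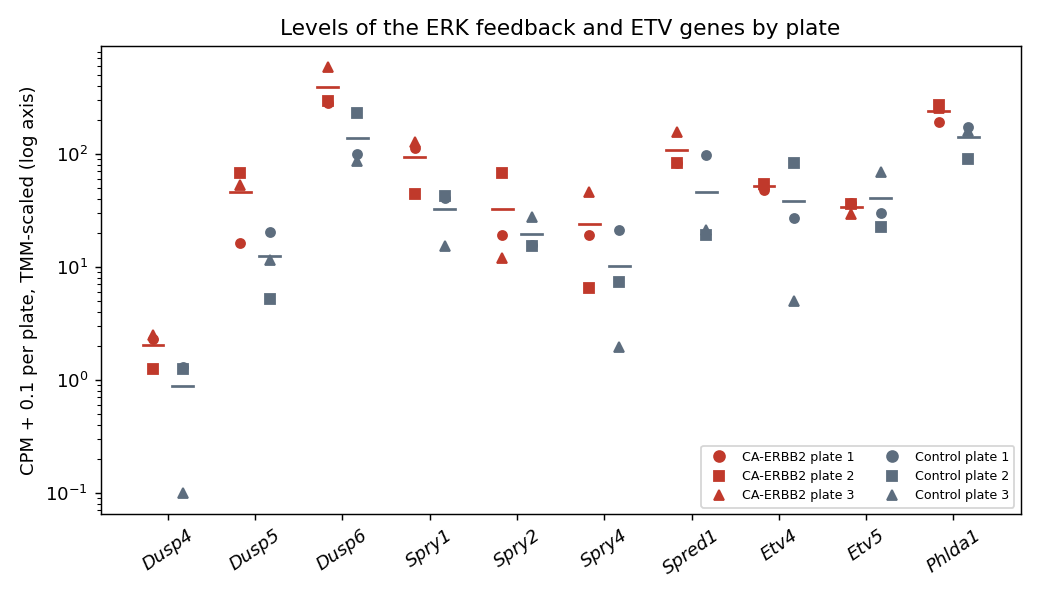
Level of each of the 10 genes in each plate, as TMM-scaled CPM plus 0.1 on a log axis; red symbols are CA-ERBB2 and grey symbols Control plates 1 to 3, and short lines are group means. The red and grey symbols of *Dusp6*, *Spry1* and *Phlda1* do not overlap, and *Dusp4* sits near 1 CPM with 1 Control plate at 0.

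Read against all genes, 9 of the 10 log2 fold changes were above 0, as were 49.2% of the 21416 genes tested, and the median was 1.23 against -0.02. Unadjusted edgeR p-values were under 0.05 and higher in CA-ERBB2 for 3 of the 10 genes (*Dusp5*, *Dusp6* and *Spry1*) and for 2.77% of all genes. CA-ERBB2 plates were all above Control plates for 3 of the 10 (*Dusp6*, *Spry1* and *Phlda1*) and for 4.2% of all genes. At an adjusted p under 0.05 the test called none of the 10 and 0.00467% of all genes. It did not call the osteopontin gene *Spp1* either, at a log2 fold change of 7.24 ± 1.34 (SE; edgeR adjusted p = 0.563). A gene that was not called is therefore not shown to be unchanged. DESeq2 also called none of the 10, with a lowest adjusted p of 0.348. Without TMM factors 0 of the 10 genes had separated plates, where 2.78% of all genes had, and the median of the 10 was 0.74 against a median of -0.27 over all genes, which is 1.01 above it in place of 1.26. The count at an unadjusted p fell from 3 to 0 without TMM factors, without CA-ERBB2 plate 3, without Control plate 3 or with every cell weighted equally, and to 1 without wells A12 to D12. The corresponding counts over all genes, in either direction, were 1106 with all plates, then 810, 1038, 1189, 188 and 705.

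Per kilobase of exon, the order of levels in CA-ERBB2 was *Dusp6* (123 ± 54.5 CPM per kb, SD, n = 3 plates), *Phlda1* (108 ± 19.4), *Spry1* (32.3 ± 15.1), *Dusp5*, *Etv4*, *Spred1*, *Spry2*, *Etv5*, *Spry4* and *Dusp4* (0.696 ± 0.245). In Control it began with *Phlda1* (63.5 ± 20.3 CPM per kb) and *Dusp6* (44.2 ± 25.7), and *Dusp5* was the eighth (4.93 ± 3.08) where it was the fourth in CA-ERBB2 (18.3 ± 10.7). In CA-ERBB2 the plate ranges of neighbors in this order did not overlap at 2 places, between *Phlda1* and *Spry1* and between *Spry4* and *Dusp4*. In Control the 1 such place was between *Dusp6* and *Etv4*, so the order of the other neighbors is not set beyond the spread between plates.

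The rest of the pathway was described with lists of related genes, and none of their genes passed at an adjusted p under 0.05. Of the 12 ERBB receptors and ligands tested, 1 had an unadjusted p under 0.05, *Erbb2* itself, which was at 106, 46.1 and 120 CPM in CA-ERBB2 and at 19.8, 3.24 and 12.4 CPM in Control (log2 fold change 2.94 ± 0.76, SE; edgeR adjusted p = 0.774). DESeq2 called *Erbb2* (log2 fold change 3.00). The median of that list was -0.15. Of the 10 FGF receptors and ligands tested, *Fgf1* passed at the unadjusted p, at 12.8, 20.2 and 95.4 CPM against 4.78, 6.61 and 0.339 CPM (log2 fold change 3.45 ± 1.17, SE). Of 19 genes of the cascade from adaptors to ERK, *Mapk3*, which encodes an ERK protein, was at 68.2, 87.2 and 197 CPM against 54.7, 44.4 and 46.3 CPM (1.28 ± 0.55, SE), and the median of the 19 was 0.06.

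Among 13 other feedback regulators tested, *Spred2* and *Dusp2* passed at the unadjusted p. *Spred2*, a relative of *Spred1*, was at 13.4 and 4.23 CPM on CA-ERBB2 plates 1 and 2 and at 166 CPM on plate 3, against 3.65 to 15.5 CPM in Control, and its log2 fold change of 2.98 became 0.20 without CA-ERBB2 plate 3. *Dusp2*, a phosphatase of immediate early type, was at 14.8, 19.3 and 0.588 CPM against 0.522, 1.02 and 0 CPM. Among 15 other ERK-responsive transcripts, 3 passed at the unadjusted p and 7 had a log2 fold change above 0. These were the immediate early factor *Egr3* (37.8, 171 and 244.2 against 45.9, 48.3 and 14 CPM), the cyclin *Ccnd1* (51.3, 123 and 41.5 against 25.2, 29.7 and 22.3 CPM) and the chromatin protein *Hmga2* (15.5, 48.6 and 40.7 against 10.8, 2.87 and 13 CPM). Of the 9 ETS factors with *Cic*, none passed, and their most abundant members *Gabpa* (0.48 ± 0.51, SE) and *Elk3* (0.27 ± 0.78, SE, with the sign lost without TMM factors) stayed within their error. No gene of the 6 lists had an unadjusted p under 0.05 in the direction of lower in CA-ERBB2. For scale, 2.77% of all genes passed higher and 512 of 21416 passed lower.

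The second comparison asked in how many cells each transcript was found. A cell was counted when it had at least 1 count. *Dusp6* was found in 47, 27 and 25 of the 59 cells of CA-ERBB2 plates 1 to 3 and in 35, 16 and 13 of the 59 cells of Control plates 1 to 3. Plate 1 was the highest in each genotype, and Control plate 1 lay above CA-ERBB2 plates 2 and 3. The mean share of cells with *Dusp6* was 55.9% ± 20.6 (SD, n = 3) against 36.2% ± 20.2 (exact permutation test over plates, two-sided p = 0.3, where 0.1 is the smallest p that 3 plates against 3 allow). Over all cells, and between plates of the same number, the share was higher in CA-ERBB2 by 20.3, 18.6 and 20.3 percentage points. The test did not pair these plates. Among cells with at least 100000 counts the plates numbered 2 were close, at 46.6% in CA-ERBB2 and 44.4% in Control. On Control plate 2, 23 of the 59 cells fell under that limit. *Etv4* was found in 37, 16 and 13 cells of the CA-ERBB2 plates and in 21, 6 and 9 cells of the Control plates, a mean of 37.3% ± 22.2 against 20.3% ± 13.5 (exact permutation p = 0.4). *Dusp5* was found in 36, 15 and 13 against 22, 6 and 7 cells (exact permutation p = 0.5).

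Plate 1 was again the high plate for the Sprouty genes and *Spred1*. *Spred1* was found in 55, 21 and 20 against 43, 13 and 10 cells, *Spry1* in 35, 8 and 14 against 21, 10 and 8, *Spry2* in 39, 21 and 14 against 31, 16 and 17, and *Spry4* in 32, 11 and 12 against 24, 10 and 3. *Phlda1* was the most widely found of the 10, in 53, 34 and 27 cells of the CA-ERBB2 plates and 51, 21 and 18 of the Control plates. *Etv5* was found in 44, 17 and 15 against 34, 18 and 16 cells, and *Dusp4* in 12, 2 and 3 against 9, 2 and 0. The pooled share of cells was higher in CA-ERBB2 for each of the 10 genes, as for 73.7% of all genes. Among cells with at least 100000 counts it was higher for 8 of the 10, as for 37.9% of all genes, and lower for *Spry2* (42.3% against 43.8%) and *Etv5* (43.4% against 47.2%). Over all cells, exact permutation p-values over the 10 ranged from 0.3 to 0.9. The plates overlapped for all of the 10, whereas 1.25% of all genes had a higher share on every CA-ERBB2 plate than on every Control plate.

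Leaving out the cells under 100000 counts, most of them Control, changed the mean differences in share from 19.8 to 13 percentage points for *Dusp6*, from 16.9 to 14 for *Etv4*, from 16.4 to 13.7 for *Dusp5* and from 13.6 to 4.5 for *Phlda1*. With the remaining cells also thinned to 100000 counts the differences were 11.2, 15.8, 12 and 3.09 percentage points. Plate 1 was the high plate in each genotype, so leaving it out of 1 genotype alone moved these values. Between plates of the same number, the differences over all cells were 20.3, 18.6 and 20.3 for *Dusp6* and 3.39, 22 and 15.3 for *Phlda1*. Among cells with at least 100000 counts, the plates numbered 2 differed little. Their shares were 46.6% in CA-ERBB2 against 44.4% in Control for *Dusp6*, and 58.6% against 58.3% for *Phlda1*. Without CA-ERBB2 plate 1 the unthinned differences of the means over all cells were 7.91 for *Dusp6*, 4.24 for *Etv4*, 3.95 for *Dusp5* and 0.847 for *Phlda1*. Without Control plate 1 they were 31.4, 24.6, 25.1 and 31.4. The differences of *Dusp6* and *Phlda1* were also lower without Control plate 3 (12.7 and 3.39), and that of *Phlda1* was 5.93 without Control plate 2 and rose to 22.9 when CA-ERBB2 plate 3 was left out. Without CA-ERBB2 plate 1 the sign of the difference turned for *Dusp4*, *Spry1*, *Spry2*, *Spry4*, *Spred1* and *Etv5*. Over the 10 genes together, a cell had a mean of 6.61, 2.92 and 2.64 genes found on the CA-ERBB2 plates and 4.93, 2 and 1.71 on the Control plates (exact permutation p = 0.5). After thinning these were 5.66, 2.45 and 2.26 against 3.93, 2.67 and 1.65 (exact permutation p = 0.7). In the 12 CA-ERBB2 wells A12 to D12 the mean was 9.25 genes found, against 3.68 in the other wells, and 8 against 2.51 in Control.

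**Figure D2:**
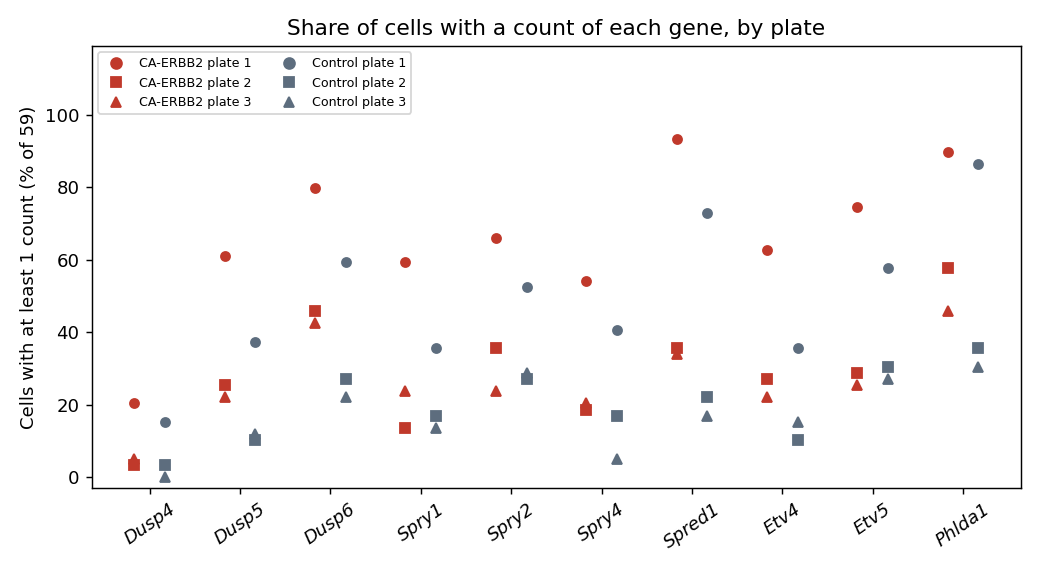
Share of the 59 cells of each plate with at least 1 count of each gene, in percent; red symbols are CA-ERBB2 and grey symbols Control plates. Plate 1 (circles) is the highest plate in both genotypes for every gene, and for no gene do all red symbols lie above all grey ones.

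The third question was how the 10 transcripts vary from cell to cell with *Erbb2* and with *Spp1*, which encodes osteopontin and was at 7137, 116700 and 136700 CPM on CA-ERBB2 plates against 143, 465.5 and 1116 CPM on Control plates. Pearson's r of log2(CPM + 1) was taken after centering each plate on its mean, over 175 CA-ERBB2 and 144 Control cells with at least 100000 counts. Cells of a plate share a library preparation and differ in depth, so r is given as a description with no p. As a yardstick, the place of each r is given among all genes found in at least 20% of the cells (11964 genes in CA-ERBB2, 12095 in Control), for which the median r with *Erbb2* was 0.28 in CA-ERBB2 and 0.20 in Control.

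In CA-ERBB2 cells *Etv4* followed *Erbb2* most closely, with r = 0.56, higher than 99.86% of genes. *Spry1* was next (r = 0.53, higher than 99.65% of genes), then *Dusp6* (r = 0.50, higher than 98.81%), *Phlda1* (r = 0.49, higher than 98.31%), *Spry2* (r = 0.46, higher than 96.41%) and *Etv5* (r = 0.44, higher than 93.44%). *Spred1* (r = 0.32), *Spry4* (r = 0.30) and *Dusp5* (r = 0.25) lay near the middle of all genes, and *Dusp4*, with counts in too few cells for a place among genes, had r = 0.41. In Control cells the same genes had r with *Erbb2* between 0.068 (*Etv4*) and 0.235 (*Spry1*), with places from 10.51% to 65.61% of genes. Thus *Etv4* was the highest of the 10 in CA-ERBB2 and, by this measure, the lowest in Control. By Spearman rank correlation, or with the number of genes detected taken out, *Etv5* was the lowest in Control (0.133 and -0.048). *Erbb2* was found in 38, 7 and 6 cells of Control plates 1 to 3, so r on Control plates 2 and 3 rests on few cells with *Erbb2*.

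Plate by plate, r of *Etv4* with *Erbb2* was 0.715, 0.412 and 0.483 on CA-ERBB2 plates 1 to 3 and 0.043, -0.026 and 0.271 on Control plates 1 to 3. *Etv5* had 0.407, 0.440 and 0.485 against -0.024, 0.287 and 0.184. For these 2 genes of the 9 with a value on each plate, every CA-ERBB2 plate lay above every Control plate, as for 11.9% of the 11472 genes compared. The other 7 overlapped. *Dusp6* had 0.604, 0.363 and 0.517 against 0.187, 0.463 and 0.038, where Control plate 2 lay above CA-ERBB2 plate 2, and *Spry1* had 0.666, 0.588 and 0.280 against 0.135, 0.433 and 0.337, where CA-ERBB2 plate 3 was the low plate.

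Cells in which *Erbb2* was found had many more genes in all. Their median was 9444 genes detected in CA-ERBB2 (82 cells), against 1853 in the 93 cells without *Erbb2*, and 9507 (51 cells) against 3139 (93 cells) in Control. *Etv4* was found in 55 of the 82 CA-ERBB2 cells with *Erbb2* and in 11 of the 93 without, and in Control in 22 of 51 and 14 of 93. *Dusp6* was found in 69 of 82 and 30 of 93 CA-ERBB2 cells, and in 34 of 51 and 30 of 93 Control cells. All 17 CA-ERBB2 cells with *Dusp4* also held *Erbb2*: 0 of the 93 other cells had *Dusp4*, which allows a share of cells with a count of up to 3.23%, counting error alone considered, and sets no limit on cells that express it. The median gene was itself found in 63.4% of the CA-ERBB2 cells with *Erbb2* and in 18.3% of those without, and the shares above are to be read against it.

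The number of genes detected was therefore taken out of both values. For *Etv4* the adjusted r with *Erbb2* in CA-ERBB2 cells was 0.41 (higher than 99.81% of genes) and for *Spry1* 0.41 (higher than 99.77%). *Spry2* (0.28, higher than 96.57%), *Dusp6* (0.28, higher than 96.07%), *Phlda1* (0.26, higher than 95.36%) and *Etv5* (0.25, higher than 94.12%) followed. *Spry4* (0.06), *Dusp5* (0.02) and *Spred1* (-0.04) had little left. The median of all genes was 0.05, and in Control the adjusted r of the 10 genes lay between -0.048 and 0.120. Within the CA-ERBB2 cells that had at least 1 count of *Erbb2*, r was 0.40 for *Etv4*, 0.42 for *Spry1*, 0.39 for *Dusp6* and -0.09 for *Spred1*. In the Control cells with *Erbb2* it was -0.20 for *Etv4*, 0.02 for *Spry1* and 0.12 for *Dusp6*. Without wells A12 to D12 the places of *Etv4*, *Spry1* and *Dusp6* among genes in CA-ERBB2 were 99.90%, 99.54% and 98.75%.

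**Figure D3:**
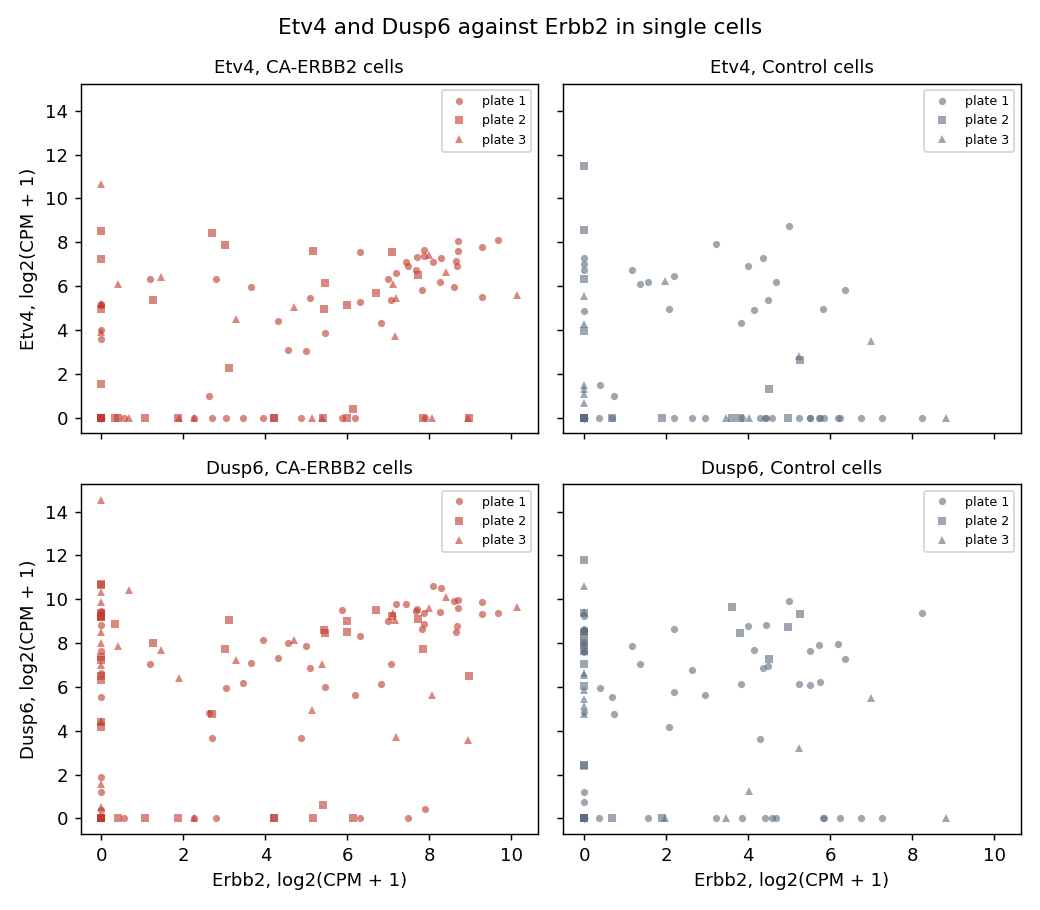
*Etv4* (top) and *Dusp6* (bottom) against *Erbb2* in single cells, each axis in log2(CPM + 1), for the 175 CA-ERBB2 cells (red) and 144 Control cells (grey) with at least 100000 counts; symbols mark plates. In CA-ERBB2 the cells with much *Erbb2* lie mostly at high *Etv4* and *Dusp6*, while many cells without *Erbb2* lie on the left edge at any level.

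The relation to *Spp1* was weaker, and the order of the genes was different. In CA-ERBB2 cells r with *Spp1* was 0.36 for *Phlda1* (higher than 98.74% of genes), 0.36 for *Spry4* (higher than 98.60%) and 0.30 for *Dusp6* (higher than 96.42%). *Etv4* (0.11), *Etv5* (0.05) and *Spry1* (-0.02, higher than 13.18% of genes), which ranked high with *Erbb2*, were near or below the middle, the median of all genes being 0.09. Plates differed: r of *Phlda1* with *Spp1* was 0.056, 0.238 and 0.655 on CA-ERBB2 plates 1 to 3, that of *Dusp6* was -0.066, 0.272 and 0.566, and that of *Spry4* was 0.447, 0.259 and 0.415. For 0 of the 9 genes was r with *Spp1* higher on every CA-ERBB2 plate than on every Control plate, against 2.2% of all genes. With the number of genes detected taken out, *Spry4* (0.27, higher than 98.70% of genes), *Phlda1* (0.26, higher than 98.51%) and *Dusp6* (0.18, higher than 95.39%) kept their places. In Control cells r with *Spp1* ranged from -0.029 (*Etv4*) to 0.215 (*Dusp5*).

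**Figure D4:**
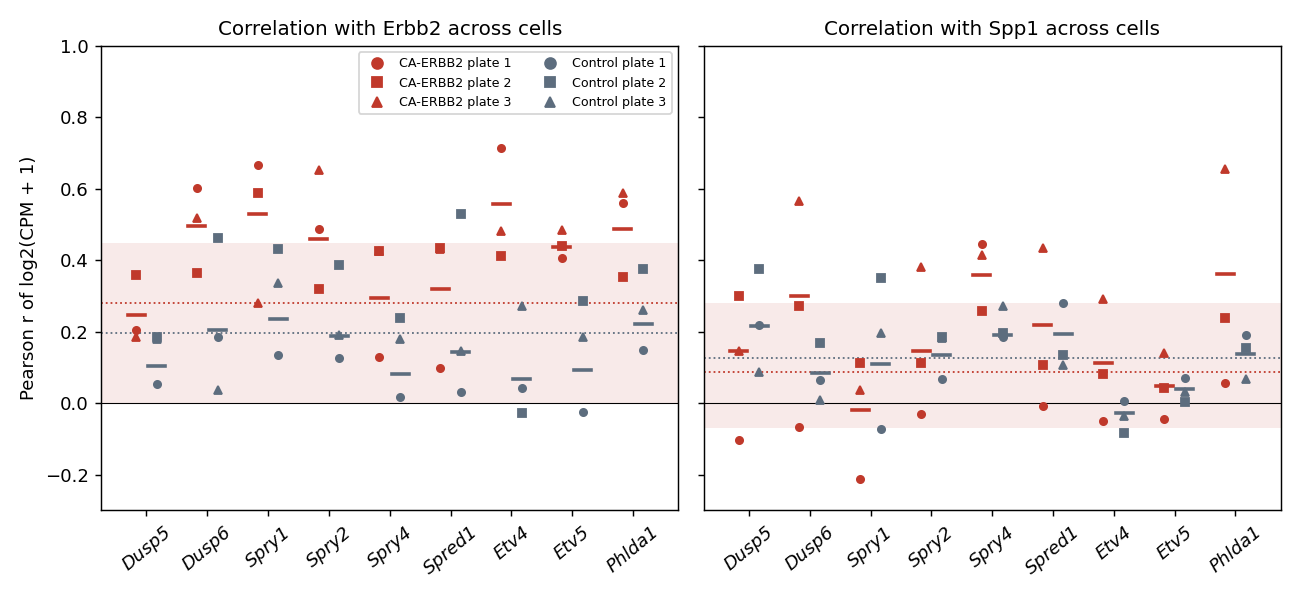
Pearson r of log2(CPM + 1) of 9 genes with *Erbb2* (left) and *Spp1* (right) across the cells of each plate; symbols are plates, short lines the plate-centered r over all cells of a genotype, dotted lines the median of all genes in each genotype, and the shaded band the 5th to 95th percentile of all genes in CA-ERBB2. The lines of *Etv4*, *Spry1*, *Dusp6*, *Phlda1* and *Spry2* lie above the band for *Erbb2*, and those of *Phlda1*, *Spry4* and *Dusp6* for *Spp1*.

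Of the 177 CA-ERBB2 cells, 36 had at least 100 CPM of each of *Spp1*, *Timp1*, *Mmp9* and *Dmp1*, genes of secreted matrix proteins and their proteases and inhibitor. They were 3 cells on plate 1, 14 on plate 2 and 19 on plate 3, so plates 2 and 3 are described. On plate 2 these cells had a median of 3136 genes detected, against 2929 in the other 45 cells, and the median gene was found in 28.6% of them and in 22.2% of the others. On plate 3 they had 3404 genes against 1227 in the other 40 cells, and the median gene was found in 36.8% and 10% of them. *Phlda1* was found in 13 of 14 such cells and 21 of 45 others on plate 2, and in 16 of 19 and 11 of 40 on plate 3. *Dusp6* was found in 11 of 14 and 16 of 45 on plate 2, and in 14 of 19 and 11 of 40 on plate 3. *Dusp5* was found in 7 of 14 and 8 of 45, and in 10 of 19 and 3 of 40. *Spry4* was found in 5 of 14 and 6 of 45, and in 10 of 19 and 2 of 40. *Spry1* was found in 4 of 14 and 4 of 45, and in 7 of 19 and 7 of 40, and *Spred1* in 5 of 14 and 16 of 45, which are nearly equal shares, and in 12 of 19 and 8 of 40. *Spry2* was found in 8 of 14 and 13 of 45, and in 8 of 19 and 6 of 40. *Etv4* was found in 6 of 14 and 10 of 45, and in 9 of 19 and 4 of 40. *Etv5* was found in 5 of 14 and 12 of 45, and in 9 of 19 and 6 of 40. *Dusp4* was found in 1 of 14 and 1 of 45, and in 3 of 19 and 0 of 40. All of the 10 genes but *Spred1* on plate 2 were found in a larger share of the cells with the 4 transcripts, as was the median gene on each plate. These counts have no test, and the part of the number of genes detected, which was also higher in those cells on each plate, was not tested.

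Among themselves the 10 genes were compared over their 45 pairs. Between them r ranged from 0.19 to 0.55 with a median of 0.35 in CA-ERBB2 cells, and from -0.02 to 0.43 with a median of 0.23 in Control cells. Over all pairs of genes found in at least 20% of cells the median r was 0.22 in CA-ERBB2 and 0.23 in Control, with 93.3% and 93.2% of pairs above 0. *Dusp6* with *Phlda1* was the highest pair in CA-ERBB2 and *Etv4* with *Etv5* the highest in Control. With the number of genes detected taken out, the medians were 0.16 in CA-ERBB2 and 0.09 in Control, against 0.04 and 0.04 over all pairs. The mean of the 10 genes followed the log10 number of genes detected with r = 0.76 in CA-ERBB2 and 0.67 in Control.

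The genes whose pattern across CA-ERBB2 cells was most like that mean were *Gm28592* (r = 0.76), *Me2* (r = 0.75), *Usp14* (r = 0.73), *Sec63* (r = 0.72) and *Tnc* (r = 0.71), of 11956 genes compared with a median r of 0.40. *Gm28592*, the gene opposite *Phlda1*, also tracked *Phlda1* itself over 319 cells (r = 0.88), and *Phlda1* is part of that mean. Whether reads of *Phlda1* entered the counts of *Gm28592* was not tested. *Erbb2* stood at place 49 in this order (r = 0.65) and *Spp1* at place 8847. In Control cells the nearest were *Rev3l* (r = 0.64), *Gm28592* (r = 0.64), *Syne2* (r = 0.62), *Cep97* (r = 0.62) and *Specc1l* (r = 0.61), and *Erbb2* stood at place 9207 of 12087 (r = 0.27).

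**Figure D5:**
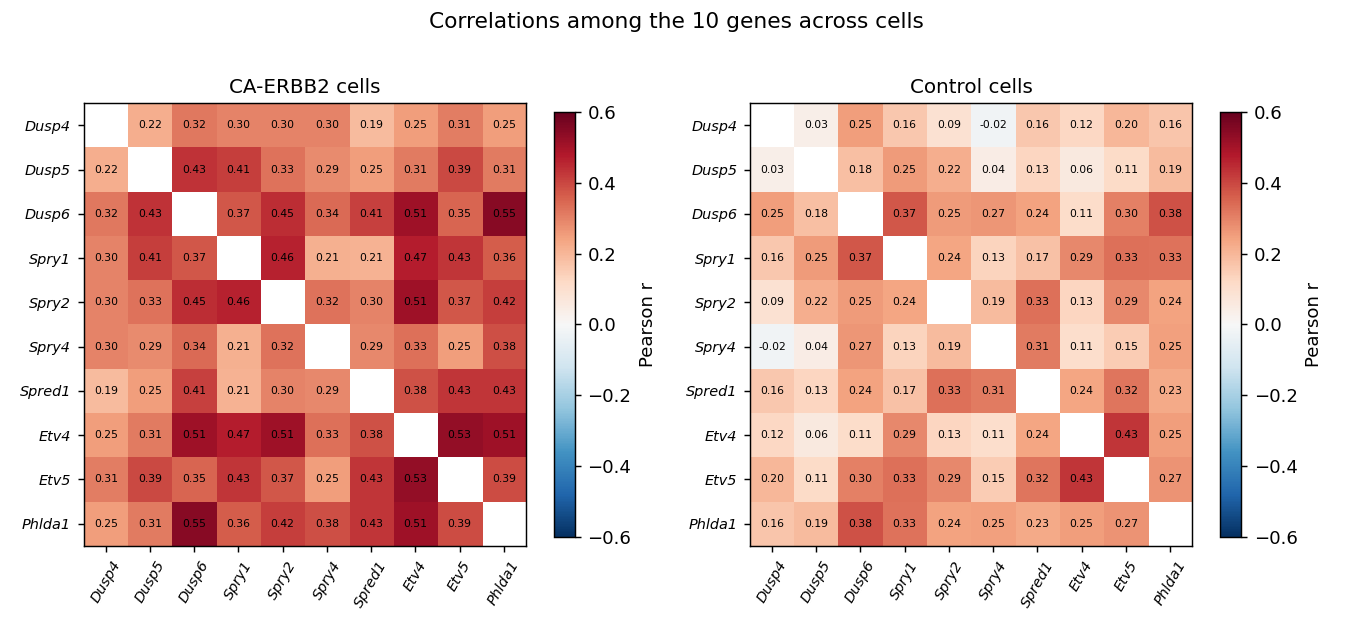
Plate-centered Pearson r of log2(CPM + 1) between each pair of the 10 genes across cells with at least 100000 counts, for CA-ERBB2 (left) and Control (right); red is above 0 and blue below. All 45 pairs are above 0 in CA-ERBB2 and 44 of 45 in Control, with medians of 0.35 and 0.23, where the medians over all pairs of genes are 0.22 and 0.23.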

How the data were processed

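Single GFP+ cells were sequenced with SMART-Seq Single PLUS libraries. The authors demultiplexed reads with bcl2fastq 2.19.1, trimmed them with fastp, aligned them with STAR 2.7.6a to GRCm38 and counted them per gene of Gencode M25 with featureCounts (Subread 2.0.1). They deposited raw counts for each cell, which hold reads and not molecules. They clustered cells in Seurat 4.0.4 (R 4.0.5).

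Here counts were summed over the 59 cells of each of 6 plates and tested with edgeR 4.0.16 (quasi-likelihood, TMM, filterByExpr, all 6 plates, no covariate, Benjamini-Hochberg) in R 4.3.3, after a check on simulated data. The simulated fold changes were larger than those of the 10 genes, so the check does not cover changes of their size. Shares of cells were compared over plates with a two-sided exact permutation test (scipy 1.17.1). Correlations used log2(CPM + 1), with the mean of each plate removed. Limits on counts cover counting error alone. Doublets were not called. Exon lengths and coordinates came from Gencode M21, of the same build, and promoters from RefSeq. The 10 genes and the lists were chosen with earlier results of these data known. From each list, genes with an unadjusted p under 0.05 were named (up to 3), otherwise the 2 most abundant, with the 5 genes most like the mean of the 10. Alternatives were DESeq2 1.42.0, other filters, scalings and weights, plates left out and a replicate block. Totals without TMM factors, and filters on cells for the shares, were added after the data were seen.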

Additional observations from a re-analysis of the deposited data

How the results depend on the processing

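None of the 10 genes was called in any of the 14 alternatives to the edgeR test. The number of genes called among all genes was 1, and became 235 with DESeq2, 285 with no filter on low counts, 0 with every cell weighted equally and 0 to 2 when a plate was left out. Of the pathway lists, DESeq2 and the test with no filter each called 1 gene, *Erbb2*. When a plate was left out, the log2 fold change ranged from -0.34 to 1.17 for *Spry2*, from -0.0704 to 1.69 for *Etv4*, from -0.56 to 0.38 for *Etv5* and from -0.86 to 0.84 for *Elk3*. *Etv5* was at 0.16 with every cell weighted equally, and *Elk3* at -0.0818 without TMM factors and at -0.10 with the replicate block. The other 7 genes of the 10 kept their sign in all of these alternatives. With the replicate block, 1 of the 10 genes had an unadjusted p under 0.05 in place of 3, and the log2 fold change of *Dusp6* was 1.54. Plates with the same number deviated together with r of 0.215, 0.082 and 0.077, not all above 0.1, so the numbers were not taken as pairs. Yet 6 of 6 plates were most like the plate of their own number, and the labels do not say what such plates had in common. The p-values for shares of cells, from unpaired tests, therefore include the spread between plate 1 and the other plates. Over all cells, and between plates of the same number, the share with *Dusp6* was higher in CA-ERBB2 by 20.3, 18.6 and 20.3 percentage points. That of *Etv4* was higher by 27.1, 16.9 and 6.78 and that of *Dusp5* by 23.7, 15.3 and 10.2. The shares of *Spry4*, *Spred1* and *Phlda1* were also higher at each number. Those of *Spry1*, *Spry2* and *Etv5* differed in sign between numbers, and *Dusp4* was equal at number 2. Number 2 changed among cells with at least 100000 counts, which leaves out 23 of the 59 cells of Control plate 2. There *Spry4* was lower in CA-ERBB2 (19% against 27.8%). *Dusp6* (46.6% against 44.4%), *Spred1* (36.2% against 36.1%) and *Phlda1* (58.6% against 58.3%) differed little. *Etv4* (27.6% against 16.7%) and *Dusp5* (25.9% against 16.7%) stayed higher.

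Differences in the share of cells ranged, when a plate was left out, from -1.98 to 7.91 percentage points for *Dusp4*, -3.39 to 19.5 for *Spry1*, -6.50 to 14.7 for *Spry2*, -1.41 to 20.1 for *Spry4*, -2.54 to 34.7 for *Spred1* and -11.3 to 14.1 for *Etv5*. In cells with at least 100000 counts and under 20% mitochondrial counts, *Spry2* was at -1.63 and *Etv5* at -4.25, and with the limit on counts alone at -1.06 and -3.51. The median r of the 10 genes with *Erbb2* was 0.448, and became 0.533 without centering plates, 0.270 with the number of genes detected taken out, 0.389 after thinning, 0.340 in cells with *Erbb2*, 0.388 without wells A12 to D12 and 0.387 on plate 2. *Spred1* turned to -0.036 with the number of genes detected taken out and to -0.086 in cells with *Erbb2*. The median r with *Spp1* was 0.148, and -0.037, 0.114 and 0.336 on plates 1 to 3, and it ranged from 0.088 to 0.222 when a plate was left out. Where no reason is given, the cause was not tested. *Dusp4* had 1302 counts in 354 cells, and a cell without a count of it cannot be told from a cell with little of it.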
